A study of Mus musculus with 6 samples.

Results

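The genes described here are 36 genes of G2 and mitosis, chosen by symbol from the 24453 gene rows of 6 bulk RNA-seq libraries, and all 36 were found. Their protein products carry a cell from the end of DNA replication through chromosome segregation to the separation of its daughters. Cells were sorted by flow cytometry from back skin taken on the day of birth (P0). In 3 libraries the genotype is given as Control and in 3 as Ring1a-/- Ring1b-/-, called Ring1a/b 2KO in the titles and 2KO here. RING1A (gene Ring1) and RING1B (gene Rnf2) are the ubiquitin ligases of Polycomb repressive complex 1, which represses genes through chromatin. The series asks what this complex does in the developing skin epithelium. The alleles, any Cre driver, the strain, the genotype of the controls and whether each library came from 1 animal or a pool are not stated by the labels. P-values therefore measure the spread between these libraries.

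The cells are labelled hair follicle cells, while the sorting text attached to the samples describes a gate for interfollicular epidermis (EpCAM and Sca1 positive, α6-integrin high). Summed over 10 hair follicle genes, among them Shh, Lhx2 and Sox9, the level was 1650 to 2337 CPM in control and 1663 to 2211 CPM in 2KO (CPM, reads of a gene relative to library size, with TMM scaling between libraries). The sums overlapped, but 4 of the 10 genes, Shh among them, were called lower in 2KO by the test given below. Ly6a, which encodes Sca1, was between 1.92 and 7.27 CPM, while Epcam was between 165 and 358 CPM. The libraries held 24759973 to 30798564 counts, so that 1 count was worth 0.0323 to 0.0392 CPM. Transcripts of the targeted genes overlapped between the groups. Ring1 was at 19.5, 22.4 and 3.37 CPM in control replicates 1, 2 and 3 and at 1.84, 7.34 and 14.1 CPM in 2KO replicates 1, 2 and 3. The library labelled control replicate 3 thus lay below 2KO replicates 2 and 3, and the one labelled 2KO replicate 3 was the highest of its group. Both go against their labels if the knockout removes Ring1 transcript, and the deleted part of the gene is not stated. Rnf2 was at 67.6, 79.4 and 47.1 CPM in control and at 75.3, 66.4 and 89.1 CPM in 2KO, with 2KO replicate 3 the highest and control replicate 3 the lowest of all 6. Xist was at 2.48, 9.26 and 4553 CPM in control and at 5358, 4950 and 10.4 CPM in 2KO, so that in Xist replicate 3 of each group was like replicates 1 and 2 of the other. High Xist thus stood in control replicate 3 and in 2KO replicates 1 and 2, unevenly between the groups. Sex is not among the sample labels used here, and its part in the results was not tested. A fit with Xist as a covariate is given below. Cdkn2a and Cdkn1c, both called higher in 2KO below, differed between the replicate-3 libraries in the direction of the labels. Cdkn2a had 0 counts in control replicate 3 and 29 in 2KO replicate 3, and Cdkn1c was at 13.6 and 58.7 CPM. Both calls were made with these labels, so these genes cannot decide whether the labels hold. Whether the labels of the replicate-3 libraries were exchanged was not tested. Below, control and 2KO mean the libraries that carry those labels, and the main counts are also given with both replicate-3 libraries removed. Markers of other cell types were low for endothelial cells (3.60 to 15.2 summed CPM over 6 genes), immune cells (6.55 to 18.2 over 7) and red blood cells (2.90 to 6.60 over 5, with 3 of these at 0 in all libraries). Merkel cell genes were low but did not overlap between the groups, with sums over 6 genes of 7.13 to 15.3 CPM in control and 17.5 to 50.7 CPM in 2KO (Krt18 rose, edgeR adjusted p = 0.00847). Schwann cell and nerve genes did not overlap either, with 6.70 to 8.56 CPM in control and 9.87 to 12.7 CPM in 2KO over 5 genes, none of which passed the test. Melanocyte genes summed over 7 were at 84.2 CPM in 2KO replicate 3 and at 23.0 to 39.3 CPM in the other libraries. Muscle genes summed over 6 were at 1.87 to 3.46 CPM in control and 0.667 to 1.41 CPM in 2KO. The part of these markers in the results below was not tested.

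Mitosis is driven by the kinase CDK1 bound to cyclins A and B. Chromosomes condense, attach through kinetochores to microtubules of the spindle, and are held by a checkpoint until all are attached. The anaphase-promoting complex then destroys cyclin B and securin, and a contractile ring divides the cell. Transcripts of this machinery build up late in the cell cycle under FOXM1, B-MYB and the MuvB complex, and they are low in resting cells. In newborn skin, basal keratinocytes and the matrix of the growing follicle are the dividing epithelial cells. In bulk RNA, fewer cells in G2 and mitosis and less of this RNA per dividing cell cannot be told apart.

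Promoters of this gene class are known for a short element, the cell cycle genes homology region or CHR, that the MuvB complex binds, and for CCAAT boxes, bound by NF-Y. RefSeq promoter windows (GRCm38.p6, 250 bases before to 50 bases after the start) were matched by symbol for 31 of the 36 genes, and not for Ccna2, Aurkb, Tpx2, Dlgap5 and Kif20a. The CHR letters TTTGAA stood on either strand in 22 of the 31 (71.0%), against 14.6% of 11355 tested genes with a window and 20.2% of all 27025 genes in the table. CCAAT stood on either strand in 23 of 31 (74.2%), against 42.2% of tested genes, and both motifs in 19 (61.3%) against 6.03%. No CHR match of these genes overlapped a CCAAT match. In 11 of the 22 genes a CHR lay upstream of the start, in the other 11 only past it, and in 19 the motif began within 50 bases of the start. Among S phase genes with a window the CHR letters stood in 6 of 41 (14.6%). A match describes the letters, not a bound site.

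**Figure D1:**
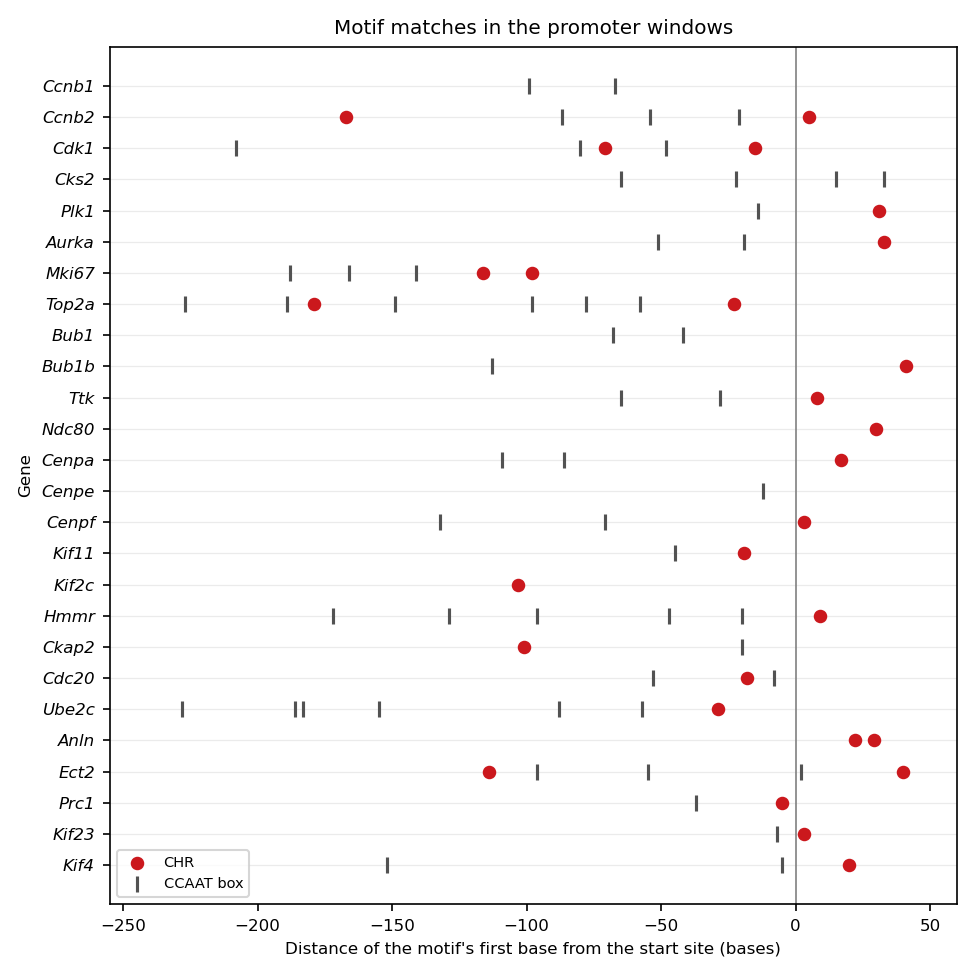
Distance in bases of each CHR match (red points) and CCAAT match (grey ticks), on either strand, from the start site (vertical line) for the 26 of 31 genes with at least 1 match, as the leftmost base of the match read along the gene; for genes with 2 windows the first is drawn. CHR points crowd around the start site, and CCAAT ticks lie mostly upstream of it.

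The windows below belong to the 3 genes with the largest and the 3 with the smallest fold change between the groups among those with a CHR match, so that sequence and fold change can be read side by side. Each line gives the 150 bases before the start, 5′ to 3′ on the gene's strand (GRCm38.p6), with CHR and CCAAT matches of either strand in capitals; on the opposite strand they read TTCAAA and ATTGG.
Mki67, chr7:135716380-135716529, minus strand: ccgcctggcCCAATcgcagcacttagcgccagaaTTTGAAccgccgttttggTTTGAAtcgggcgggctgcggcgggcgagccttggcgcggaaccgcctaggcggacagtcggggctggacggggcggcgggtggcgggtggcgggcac
Ndc80, chr17:71526858-71527007, minus strand: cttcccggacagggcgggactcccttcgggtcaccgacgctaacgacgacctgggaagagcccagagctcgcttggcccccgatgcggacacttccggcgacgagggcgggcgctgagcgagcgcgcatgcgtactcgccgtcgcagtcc
Bub1b, chr2:118598061-118598210, plus strand: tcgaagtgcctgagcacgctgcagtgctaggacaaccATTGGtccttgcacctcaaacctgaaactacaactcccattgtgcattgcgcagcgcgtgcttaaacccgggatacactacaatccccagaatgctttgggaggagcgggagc
Cdc20, chr4:118437344-118437493, minus strand: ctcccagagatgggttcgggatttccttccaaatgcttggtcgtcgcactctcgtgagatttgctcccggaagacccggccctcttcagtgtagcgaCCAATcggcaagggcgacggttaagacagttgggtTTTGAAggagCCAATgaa
Cdk1, chr10:69352913-69353062, minus strand: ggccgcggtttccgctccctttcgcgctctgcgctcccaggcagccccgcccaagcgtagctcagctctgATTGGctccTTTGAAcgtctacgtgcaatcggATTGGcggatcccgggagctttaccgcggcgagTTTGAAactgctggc
Cenpa, chr5:30666736-30666885, plus strand: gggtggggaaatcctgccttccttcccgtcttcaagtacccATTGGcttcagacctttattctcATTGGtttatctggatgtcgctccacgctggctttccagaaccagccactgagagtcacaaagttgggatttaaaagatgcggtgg
In Ndc80, Bub1b and Cenpa the CHR match lies past the start, at these sites:
Ndc80, chr17:71526813-71526838: aactttaaaaTTCAAAccgccttggg
Bub1b, chr2:118598241-118598260: agacgttaaaTTTGAAactt
Cenpa, chr5:30666892-30666917: cgggtgatttTTTGAActgctggcga
These genes were picked by the size of their fold change, so their windows cannot show whether the element goes with it. None of them passed the edgeR test described below. The median log2 fold change (2KO over control) was -0.73 over the 22 genes with a CHR match and -0.59 over the 9 without.

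All 36 genes had a lower fitted level in 2KO than in control, but 1 of them, Ccna2, passed the test (edgeR quasi-likelihood test, adjusted p under 0.05 over 14972 tested genes). All 36 passed the filter on low counts. Over all tested genes, 2.42% passed as lower and 6.61% as higher in 2KO, 9.02% in all. Of the 36, 1 (Ccna2) was lower, none was higher and 35 did not pass. At an unadjusted p under 0.05, 13 were lower and none higher, against 8.9% and 12.7% of all tested genes. At an adjusted p under 0.05, DESeq2 and limma-voom also placed none higher. The median log2 fold change was -0.69 (range -1.20 to -0.29), where that of all tested genes was -0.02 and 51.4% of them lay below 0. Groups that did not overlap were found for Ccna2 alone; among all tested genes, 13.1% had all 2KO libraries below all control libraries.

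The spread between control libraries was wide and shared by the genes. Control replicate 1 was the highest of the 6 libraries for 33 of the 36 genes, which held for 19.8% of all tested genes; the exceptions were Plk1, Cdc20 and Pttg1, highest in control replicate 3. Control replicate 2 was the lowest control library for all 36, and for 4538 of the 14972 tested genes. The level in control replicate 1 divided by the mean of the other 2 controls had a median of 2.03 (0.992 for Pttg1 to 2.76 for Cenpe). The coefficient of variation within the control group had a median of 47.2% over the 36 genes, 18.3% over the S phase genes and 22.6% over all tested genes. Within 2KO it was 30.1%, 27.2% and 25.9%. Among the 2KO libraries, replicate 1 was the highest for 32 of the 36 genes, and for 5607 of the 14972 tested genes. All 3 2KO libraries lay below control replicate 1 for all 36 genes and below both control replicates 1 and 3 for 25. The level in 2KO replicate 1 was above that in control replicate 2 for 34. Of all 14972 tested genes, these orderings held for 4526, 2637 and 7620, in that order.

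**Figure D2:**
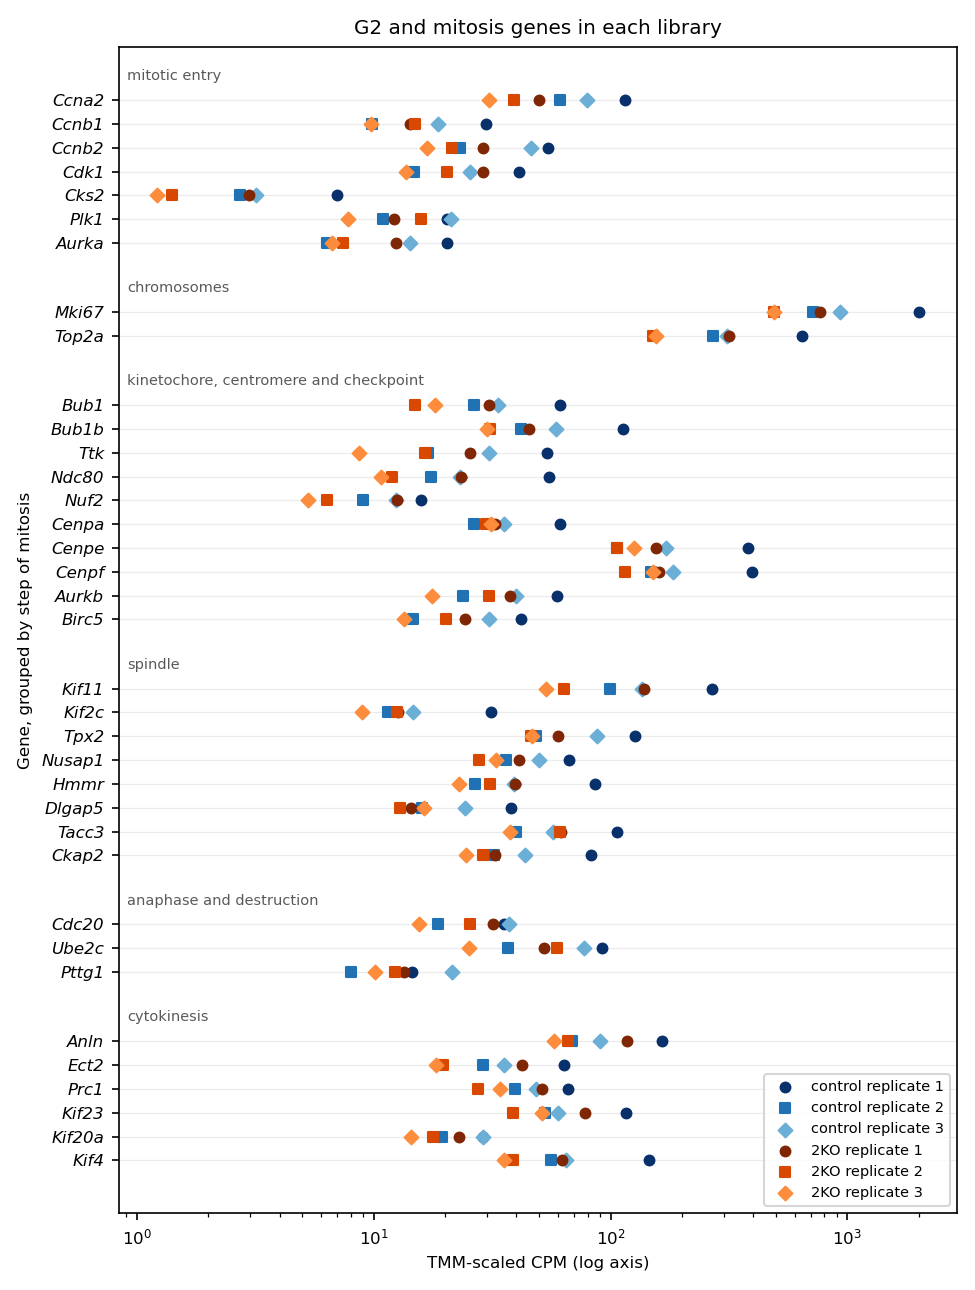
TMM-scaled CPM (log axis) of the 36 genes, grouped by step of mitosis, with 1 point per library (blue, 3 control; orange to brown, 3 2KO). Control replicate 1 (dark blue circles) is the rightmost point for 33 of 36 genes, and 2KO replicate 1 (brown circles) lies right of control replicate 2 (blue squares) for 34.

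Summed over the 36 genes, the level was 5710, 2182 and 2983 CPM in control replicates 1, 2 and 3 and 2650, 1732 and 1650 CPM in 2KO replicates 1, 2 and 3. The means were 3625 ± 1849 (SD, n = 3) and 2011 ± 555 (SD, n = 3). The 2KO range thus reached above control replicate 2. Mki67 and Top2a made up 36.9% to 46.4% of this sum, depending on the library.

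Genes that start mitosis held the gene that passed the test. Ccna2 (chromosome 3, 36564865 to 36572150, minus strand) encodes cyclin A2, which activates CDK2 in S phase and CDK1 in G2. It was at 115, 61.1 and 79.4 CPM in control and at 49.8, 39.0 and 30.8 CPM in 2KO, so that every 2KO library lay below every control library. It fell 2.14-fold (log2 fold change -1.10, SE 0.28, edgeR adjusted p = 0.0379). The call was lost without control replicate 1 (adjusted p = 0.129), control replicate 3 (0.0816), 2KO replicate 2 (0.113) or 2KO replicate 3 (0.12), with Xist as a covariate (0.0883), and when both replicate-1 (0.0548) or both replicate-3 libraries (0.215) were removed. Of its exon bases, 12.5% overlap Exosc9 on the opposite strand, and the strand setting of the counts is not given. Exosc9 was at 8.56 to 10.7 CPM in control and 10.7 to 13.7 CPM in 2KO.

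The B cyclins and their kinase were lower in mean but overlapped between the groups. Ccnb1 (cyclin B1) was at 29.7, 9.87 and 18.6 CPM in control and at 14.3, 14.9 and 9.76 CPM in 2KO (log2 fold change -0.58, SE 0.39, edgeR adjusted p = 0.454). Ccnb2 (cyclin B2) was at 54.3, 23.0 and 46.0 CPM in control and at 29.0, 21.5 and 16.7 CPM in 2KO (log2 fold change -0.87, SE 0.34, adjusted p = 0.166). For both, control replicate 2 lay within the 2KO range and the other controls above it. Cdk1, the kinase both cyclins activate, was at 40.9, 14.8 and 25.5 CPM in control and at 29.0, 20.4 and 13.7 CPM in 2KO, with a log2 fold change of -0.37 (SE 0.39, adjusted p = 0.676) that turned to 0.076 without control replicate 1.

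Cks2, a small subunit of the CDK1 complex, had the lowest log2 fold change of the 36, -1.20, and also the widest error (SE 0.60, edgeR adjusted p = 0.287). It was at 6.99, 2.71 and 3.17 CPM in control and at 2.98, 1.40 and 1.22 CPM in 2KO, down to 31 counts in 2KO replicate 3, and control replicate 2 lay below 2KO replicate 1. Plk1 (polo-like kinase 1), which promotes entry and later spindle and ring assembly, was at 20.5, 11.0 and 21.2 CPM in control and at 12.1, 15.8 and 7.76 CPM in 2KO (adjusted p = 0.429). Aurka (Aurora A), the kinase of maturing centrosomes, was at 20.4, 6.33 and 14.2 CPM in control and at 12.5, 7.41 and 6.66 CPM in 2KO (adjusted p = 0.479). In Aurka the lowest of all 6 libraries was a control, replicate 2.

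The chromosome proteins Ki-67 and topoisomerase II alpha gave the most abundant transcripts of the set. Per kilobase of exon, Mki67 was at a control mean of 121 RPKM (TMM-scaled CPM per kilobase) and Top2a at 45.3 RPKM. They were followed by Ccnb2 (26.8), Ube2c (26.4) and Cenpe (25.5), and Nuf2 was the lowest at 1.96 RPKM. Mki67 (chromosome 7, 135689784 to 135716361, minus strand) encodes the protein that coats mitotic chromosomes and serves as a marker of cycling cells. It was at 2005, 714 and 931 CPM in control and at 764, 488 and 490 CPM in 2KO. Control replicate 1 stood far above the rest, and control replicate 2 lay below 2KO replicate 1 (log2 fold change -1.07, SE 0.36, edgeR adjusted p = 0.113). Top2a, which untangles sister chromatids, was at 642, 271 and 311 CPM in control and at 317, 151 and 155 CPM in 2KO (log2 fold change -0.97, SE 0.38, adjusted p = 0.167). In Top2a, 2KO replicate 1 was above both control replicates 2 and 3.

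None of the 10 genes of the kinetochore, the centromere and the checkpoint passed the test, and their median log2 fold change was -0.77. At an unadjusted p under 0.05 in edgeR, 4 were lower and none higher, against 8.9% and 12.7% of all tested genes. The other steps had 2 of 7 (entry), 2 of 2 (chromosomes), 4 of 8 (spindle), 0 of 3 (anaphase onset) and 1 of 6 (cytokinesis) lower. Bub1b, which encodes the checkpoint protein BUBR1, was at 113, 41.8 and 58.8 CPM in control and at 45.2, 30.8 and 30.0 CPM in 2KO (log2 fold change -1.01, SE 0.35, edgeR adjusted p = 0.121). Its partner kinase Bub1 was at 61.0, 26.6 and 33.6 CPM in control and at 30.5, 14.9 and 18.1 CPM in 2KO (adjusted p = 0.175). Ttk, the checkpoint kinase MPS1, was at 53.8, 16.9 and 30.6 CPM in control and at 25.5, 16.4 and 8.70 CPM in 2KO (adjusted p = 0.257). In these 3 genes 2KO replicate 1 lay between control replicates 2 and 3, and the other 2 2KO libraries were below all controls.

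Ndc80 and Nuf2 encode partners in the complex that grips microtubules. Ndc80, with a CHR match past its start and no CCAAT match in its window, was at 55.0, 17.5 and 23.1 CPM in control and at 23.4, 12.0 and 10.7 CPM in 2KO (log2 fold change -1.05, SE 0.46, edgeR adjusted p = 0.221). Nuf2 was at 15.9, 8.97 and 12.4 CPM in control and at 12.5, 6.34 and 5.25 CPM in 2KO (adjusted p = 0.42). In both, 2KO replicate 1 exceeded control replicates 2 and 3.

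Cenpa, the centromeric histone H3 variant, was at 61.4, 26.6 and 35.3 CPM in control and at 32.5, 29.7 and 31.1 CPM in 2KO (log2 fold change -0.40, SE 0.30, edgeR adjusted p = 0.507). All 2KO libraries lay between control replicates 2 and 3, and the log2 fold change was 0.027 without control replicate 1. Cenpe, a kinetochore motor, was at 382, 106 and 171 CPM in control and at 155, 106 and 126 CPM in 2KO (adjusted p = 0.306). Cenpf, a large kinetochore protein of G2 and mitosis, was at 397, 148 and 184 CPM in control and at 161, 115 and 152 CPM in 2KO (adjusted p = 0.225).

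Aurkb (Aurora B) and Birc5 (survivin) encode subunits of the chromosomal passenger complex, which corrects faulty attachments. Aurkb was at 59.3, 23.7 and 39.9 CPM in control and at 37.7, 30.6 and 17.7 CPM in 2KO (edgeR adjusted p = 0.484). Birc5 was at 42.0, 14.7 and 30.6 CPM in control and at 24.2, 20.2 and 13.4 CPM in 2KO (adjusted p = 0.431). Both had control replicate 2 below 2KO replicates 1 and 2.

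Spindle genes had a median log2 fold change of -0.77, and none of the 8 passed. Kif11, the motor that pushes spindle poles apart, was at 269, 99.2 and 136 CPM in control and at 138, 63.5 and 53.3 CPM in 2KO (log2 fold change -0.98, SE 0.43, edgeR adjusted p = 0.22). Tpx2, which activates Aurora A and nucleates microtubules, was at 127, 48.6 and 87.3 CPM in control and at 59.9, 46.3 and 46.8 CPM in 2KO (log2 fold change -0.78, SE 0.32, adjusted p = 0.184). For Tpx2, 2KO replicates 2 and 3 were just below the lowest control, replicate 2. Ckap2, a microtubule-associated protein, was at 82.7, 32.1 and 43.6 CPM in control and at 32.6, 28.9 and 24.4 CPM in 2KO (adjusted p = 0.154). Dlgap5 (HURP), which stabilizes kinetochore fibres, was at 38.1, 15.9 and 24.2 CPM in control and at 14.3, 12.9 and 16.2 CPM in 2KO (adjusted p = 0.16). In Dlgap5 the 2KO libraries spanned 12.9 to 16.2 CPM and control replicate 2 fell just inside that span.

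The other spindle genes were further from the threshold. Nusap1, a microtubule bundler, was at 66.8, 36.2 and 49.8 CPM in control and at 41.2, 27.9 and 32.8 CPM in 2KO (edgeR adjusted p = 0.244). Hmmr, a spindle pole adaptor, was at 86.0, 26.8 and 39.2 CPM in control and at 39.3, 30.9 and 23.0 CPM in 2KO (adjusted p = 0.363). Kif2c, a microtubule depolymerase of the centromere, was at 31.4, 11.5 and 14.6 CPM in control and at 12.7, 12.5 and 8.90 CPM in 2KO (adjusted p = 0.309). In each of them control replicate 2 lay within the 2KO range. Tacc3, which crosslinks kinetochore fibres, had the smallest difference of the spindle genes, with 106, 39.8 and 57.1 CPM in control and 61.9, 61.1 and 37.8 CPM in 2KO. Its log2 fold change of -0.34 (SE 0.35, adjusted p = 0.663) turned to 0.17 without control replicate 1 and to 0.051 with both replicate-1 libraries removed.

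The genes of anaphase onset had the median log2 fold change nearest to 0 of the 6 steps, -0.32, and none of the 3 passed. Cdc20, the activator of the anaphase-promoting complex, was at 35.5, 18.6 and 37.2 CPM in control and at 31.9, 25.5 and 15.6 CPM in 2KO (log2 fold change -0.32, SE 0.34, edgeR adjusted p = 0.668). Pttg1 (securin), which holds separase inactive, was at 14.6, 8.0 and 21.4 CPM in control and at 13.4, 12.3 and 10.1 CPM in 2KO (log2 fold change -0.29, SE 0.36, adjusted p = 0.727). In Pttg1 all 2KO libraries lay between control replicates 2 and 1. The value of Pttg1 turned to 0.084 without control replicate 3, and with both replicate-3 libraries removed those of Cdc20 and Pttg1 turned to 0.084 and 0.19. Ube2c, the ubiquitin-conjugating enzyme of the complex, was at 91.8, 37.0 and 77.3 CPM in control and at 52.4, 59.4 and 25.2 CPM in 2KO (adjusted p = 0.436), with 2KO replicates 1 and 2 above control replicate 2.

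Cytokinesis genes had a median log2 fold change of -0.46, and none of the 6 passed. Kif4, a chromosome-bound motor that also acts at the central spindle, was at 145, 55.8 and 64.8 CPM in control and at 62.3, 38.8 and 35.6 CPM in 2KO (log2 fold change -0.96, SE 0.37, edgeR adjusted p = 0.167). Ect2, the exchange factor that activates RhoA for the ring, was at 63.7, 28.8 and 35.6 CPM in control and at 42.2, 19.5 and 18.3 CPM in 2KO (adjusted p = 0.371). In Ect2, as in Anln, Kif23 and Prc1, 2KO replicate 1 exceeded control replicates 2 and 3.

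Anln (anillin), a scaffold of the ring, was at 165, 68.4 and 89.8 CPM in control and at 117, 66.1 and 57.9 CPM in 2KO (edgeR adjusted p = 0.573). Kif23, the motor of centralspindlin, was at 116, 52.6 and 59.9 CPM in control and at 78.2, 38.6 and 51.5 CPM in 2KO (adjusted p = 0.536). Without control replicate 1 their log2 fold changes moved from -0.42 to 0.040 and from -0.44 to 0.012. Prc1, which bundles the midzone microtubules, was at 66.4, 39.3 and 48.5 CPM in control and at 51.4, 27.6 and 34.2 CPM in 2KO (adjusted p = 0.432). Kif20a, a midzone motor, was at 29.0, 19.3 and 28.8 CPM in control and at 22.9, 17.8 and 14.4 CPM in 2KO (adjusted p = 0.357). Of Kif20a's exon bases 29.3% overlap Cdc23 on the opposite strand, as do 22.8% of those of Ube2c with Tnnc2 and 15.1% of those of Kif4 with Pdzd11, so their counts are uncertain in that respect.

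**Figure D3:**
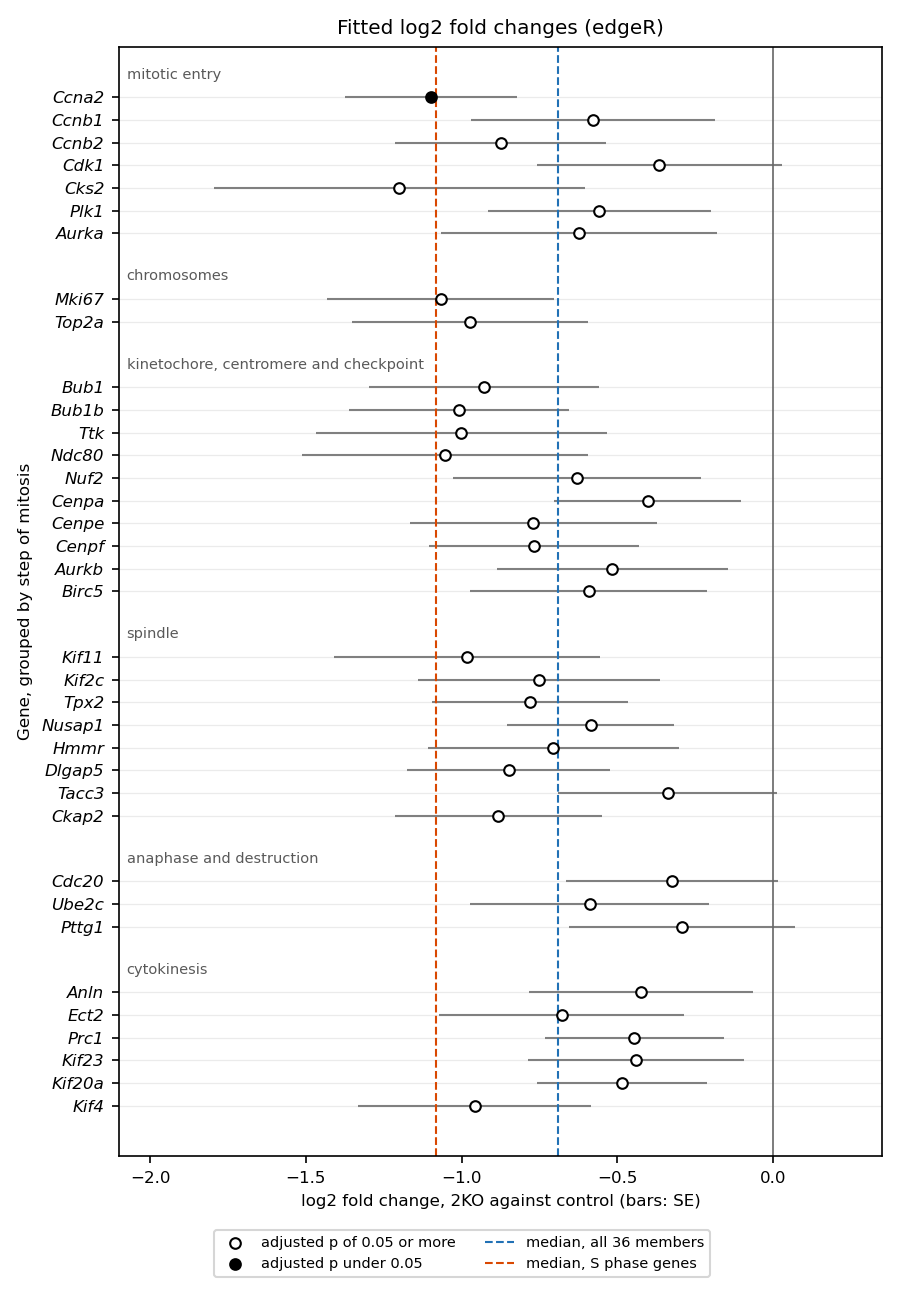
Log2 fold change of 2KO against control with its SE (horizontal bars) for the 36 genes by step, with the medians of the 36 genes (-0.69, blue dashes) and of the S phase genes (-1.08, orange dashes). All points lie left of 0, and the filled point, Ccna2, is the only one with an adjusted p under 0.05.

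The size of the group difference depended on control replicate 1. Without it the median log2 fold change of the 36 genes was -0.31, against -0.69 with all libraries, 31 of the 36 genes lay below 0, and none passed. Without any other library the median lay between -0.99 (without control replicate 2) and -0.53 (without 2KO replicate 3). The count of genes called lower was 0 without either of control replicates 1 and 3 or of 2KO replicates 2 and 3, 1 without 2KO replicate 1, and 3 without control replicate 2 (Bub1b, Ccna2 and Tpx2). With both replicate-1 libraries removed the median was -0.48, and Kif11 and Top2a passed as lower (edgeR adjusted p = 0.0387 and 0.019). With both replicate-3 libraries removed the median was -0.60 and none passed. Of all genes tested in these fits, 1.19% to 2.25% were called lower with 1 library left out. The share was 1.73% with both replicate-1 and 0.476% with both replicate-3 libraries removed. These shares also stand beside the counts of the lists below.

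**Figure D4:**
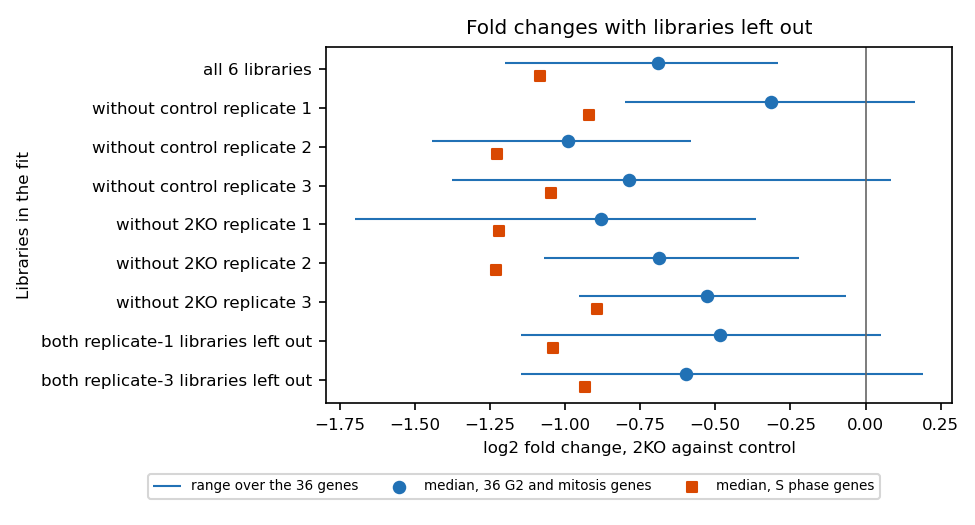
Median (blue points) and range (blue lines) of the log2 fold changes of the 36 genes, and median of the S phase genes (orange squares), in the fit of all 6 libraries and in fits with 1 or 2 libraries left out. The blue median moves toward 0 to -0.31 without control replicate 1, where the orange median is -0.92.

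Control replicate 1 also differed from the other controls in markers of the sorted cells. Summed over 7 suprabasal genes, which mark keratinocytes that have left the dividing layer, it was at 3094 CPM against 9229 and 11491 CPM in control replicates 2 and 3. The 2KO libraries were at 1223, 3797 and 3585 CPM, so that replicate 1 was the lowest of each group. Over 8 basal keratinocyte genes control replicate 1 was at 15839 CPM against 20466 and 28694 CPM, and the 2KO libraries ranged from 21606 to 29192 CPM. Shh, a ligand of the follicle's growing tip, was at 117, 66.0 and 80.4 CPM in control and at 36.3, 18.9 and 13.3 CPM in 2KO, with replicate 1 again the highest of each group. It was 1 of 4 follicle markers of 10 that fell, with Msx2, Krt25 and Krt71 (edgeR adjusted p = 0.0120, 0.0365, 0.000459 and 0.00100 in that order). Of all tested genes, 2.42% were called lower. Over 8 dermal fibroblast genes the range was 402 to 749 CPM in control, highest in replicate 1, and 617 to 737 CPM in 2KO; Twist2 was at or below 0.284 CPM in all libraries, and Pdgfra rose from 0.896 ± 0.314 to 10.2 ± 5.23 CPM (SD, n = 3 each; edgeR adjusted p = 0.00348). Their part in the results on mitosis genes was likewise not tested.

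The S phase genes, which act one step earlier in the cycle, separated the groups more often. All 53 listed replication genes were tested. Of these, 26 fell in 2KO, none rose and 27 did not pass, with a median log2 fold change of -1.08. Over all tested genes, 2.42% were called lower and 6.61% higher. At an unadjusted p under 0.05, 42 of the 53 were lower and none higher, against 8.9% and 12.7% of all tested genes. None rose at an adjusted p under 0.05 with DESeq2 or limma-voom. In 43 of the 53 all 2KO libraries lay below all controls, as in 13.1% of all tested genes. The S phase genes summed to 2890, 2038 and 2435 CPM in control and 1286, 1261 and 887 CPM in 2KO. The lowest adjusted p were those of the primase gene Prim1 (edgeR adjusted p = 0.00197), the helicase genes Mcm6 (0.00270), Mcm2 and Mcm4 (0.00542) and the chromatin remodeller gene Hells (0.00451). Mcm2 was at 91.6, 107 and 105 CPM in control and at 39.8, 40.7 and 22.7 CPM in 2KO (log2 fold change -1.55, SE 0.25, edgeR adjusted p = 0.0050). Its call held whichever library was left out. Pcna, the sliding clamp of replication, fell from 64.6, 50.1 and 53.1 CPM to 35.3, 27.9 and 17.7 CPM (adjusted p = 0.0411), a call kept without 2KO replicate 1 and lost without any other library (adjusted p = 0.0724 to 0.133). The count of fallen S phase genes was 9 without control replicate 1, 20 without control replicate 2, 13 without control replicate 3, 23, 14 and 10 without 2KO replicates 1, 2 and 3, and 4 with both replicate-3 libraries removed. Whether S phase and mitosis genes differed in their response was not tested.

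The sum of the 36 genes divided by that of the S phase genes was 1.98, 1.07 and 1.23 in control replicates 1, 2 and 3 and 2.06, 1.37 and 1.86 in 2KO replicates 1, 2 and 3. Replicate 1 had the highest ratio of each group, and the groups overlapped.

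**Figure D5:**
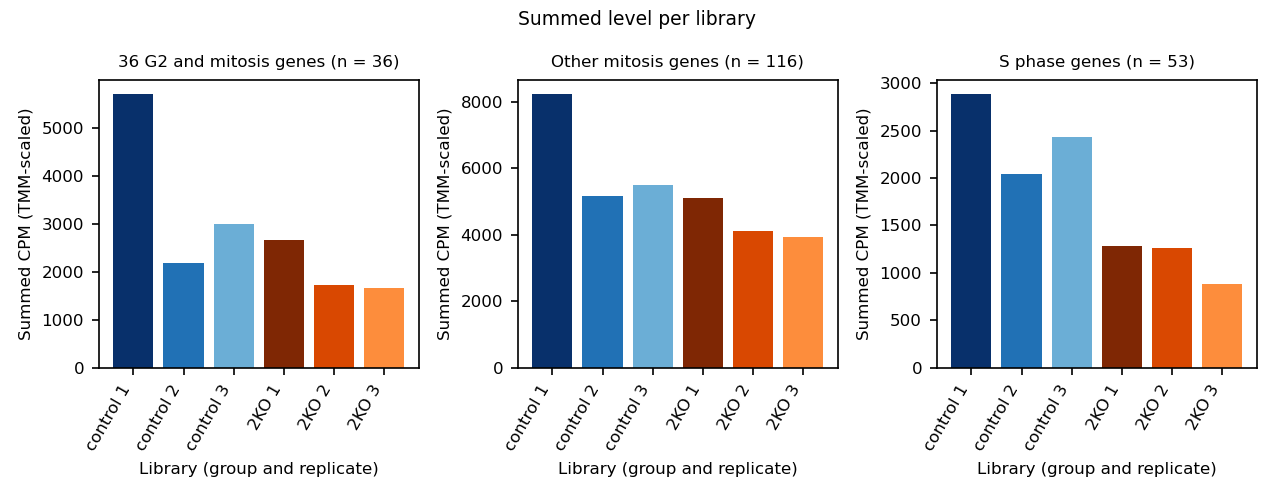
Summed TMM-scaled CPM per library of the 36 genes, of 116 other mitosis genes and of 53 S phase genes, with 1 bar per library (blue, control; orange to brown, 2KO). For the 36 genes 2KO replicate 1 (2650) exceeds control replicate 2 (2182). For the other mitosis genes all 2KO bars (3917 to 5099) are below all control bars (5147 to 8240), with 2KO replicate 1 just below control replicate 2. For the S phase genes all 2KO bars (887 to 1286) are below all control bars (2038 to 2890).

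Other genes of mitosis were listed without the 36. Of 121 listed, 114 were tested, of which 3 fell, none rose and 111 did not pass (median log2 fold change -0.67). None was higher at an adjusted p under 0.05 with DESeq2 or limma-voom either. At an unadjusted p under 0.05 in edgeR, 45 were lower and 2 higher, against 8.9% and 12.7% of all tested genes. In 38 of the 114 all 2KO libraries lay below all controls, and in 2 above, against 13.1% and 15.2% of all tested genes. The 3 of 114 stand beside 2.42% of all tested genes called lower, a share of about the same size. The falls were those of Ncapg2, a condensin II subunit (from 147, 84.4 and 70.7 CPM to 53.9, 34.8 and 21.4 CPM, edgeR adjusted p = 0.0389), the histone variant gene H2afz (from 59.8, 36.1 and 47.5 CPM to 28.0, 23.5 and 19.0 CPM, adjusted p = 0.0363) and the checkpoint gene Zwilch (from 38.1, 20.0 and 22.6 CPM to 15.2, 9.21 and 9.06 CPM, adjusted p = 0.0454). The count was 0 without control replicate 1 or 2KO replicate 2, 1 without control replicate 3 or 2KO replicate 3, 5 without control replicate 2, 8 without 2KO replicate 1 and 0 with both replicate-3 libraries removed.

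Of 25 tested regulators of G2 and mitosis transcription 2 fell and none rose, where 2.42% of all tested genes were called lower and 6.61% higher. At an unadjusted p under 0.05, 8 were lower and none higher, against 8.9% and 12.7% of all tested genes. None was higher at an adjusted p under 0.05 with DESeq2 or limma-voom. Foxm1, the forkhead activator of mitotic genes, was at 168, 79.6 and 93.8 CPM in control and at 81.4, 71.4 and 42.7 CPM in 2KO (log2 fold change -0.80, SE 0.32, edgeR adjusted p = 0.18). Mybl2 (B-MYB) was at 23.2, 14.8 and 12.9 CPM in control and at 11.5, 15.4 and 2.27 CPM in 2KO (adjusted p = 0.481). Both overlapped between the groups. Myb fell from 36.8, 22.3 and 21.9 CPM to 8.27, 11.2 and 7.53 CPM (edgeR adjusted p = 0.0116). Its call held whichever single library was left out. It was lost with both replicate-1 (adjusted p = 0.069) or both replicate-3 libraries removed (0.0909). Rbl1, the pocket protein p107, fell from 80.9, 51.5 and 60.7 CPM to 33.2, 32.5 and 25.6 CPM (adjusted p = 0.0194), a call lost without control replicates 1 (0.0748) or 3 (0.0511) and without 2KO replicates 2 (0.0562) or 3 (0.0687). The count of fallen regulators was 1 without control replicate 1 or 3 or 2KO replicate 3, and 0 with both replicate-3 libraries removed.

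Among the 8 CDK inhibitors, which restrain the kinases of the cycle, 2 rose and 1 fell. Over all tested genes, 6.61% were called higher and 2.42% lower. Cdkn1c (p57) rose from 10.1, 22.1 and 13.6 CPM to 105, 79.2 and 58.7 CPM, a log2 fold change of 2.40 (SE 0.34, edgeR adjusted p = 0.00271). Cdkn2a, the INK4A-ARF gene and a well known Polycomb target, had 0 counts in all controls and 2.55, 0.567 and 1.14 CPM in 2KO. It was at least 42.4-fold higher against a floor of 3 counts over the control group (edgeR adjusted p = 0.0166). Its call was lost without 2KO replicate 1 (0.0541) and with the Xist covariate (0.0546). The same held with both replicate-1 (0.0758) or both replicate-3 libraries removed (0.107). Cdkn1b (p27) fell from 28.2, 21.7 and 28.9 CPM to 9.21, 12.1 and 7.53 CPM (edgeR adjusted p = 0.0111). With both replicate-1 or both replicate-3 libraries removed its adjusted p was 0.0619 and 0.128. Cdkn1a (p21) did not pass, at 246, 215 and 377 CPM in control and 381, 409 and 276 CPM in 2KO (adjusted p = 0.466).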

How the data were processed

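Total RNA of 6 sorted-cell libraries was measured by RNA-seq after amplification from 10 ng, per the labels' protocols; no molecular identifiers are mentioned, so a floor of 3 counts covers counting error only. The deposited values are counts, whole reads per gene symbol, not normalized. The submitters' processing notes name HTSeq 0.6.1, TopHat2 2.0.13, DESeq2 1.6.3, Cufflinks 2.2.1 and the build mm10, without the role of each; annotation and strand setting are not stated there. Genes were filtered by filterByExpr of edgeR 4.0.16 (R 4.3.3), scaled by TMM and compared by the quasi-likelihood test without covariates, and p-values adjusted by Benjamini-Hochberg over 14972 genes, with a threshold of 0.05. The script was tested on simulated data. The SE is the log2 fold change over the square root of F. CPM used library totals of 24759973 to 30798564 counts times the TMM factor. Exon lengths (the union of a gene's exons) and coordinates are from GENCODE vM21 (GRCm38), matched by symbol for 97.1% of rows. Alternatives were DESeq2 1.42.0, limma-voom 3.58.1, median-of-ratios scaling, other filters, an Xist covariate, a replicate block and left-out libraries. The members, lists and tests were chosen with earlier results of these data known. The named genes are all members, those past the threshold with at most the 5 lowest adjusted p in each direction of a comparison list, and a few fixed examples (Foxm1, Mybl2, Pcna, Mcm2, Cdkn1a and Cdkn2a).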

Additional observations from a re-analysis of the deposited data

How the results depend on the processing

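The 36 genes kept a median log2 fold change below 0 in all 15 alternatives, between -0.99 and -0.31, and none passed as higher in any. Of 540 refitted member values, 9 changed sign, none of them past the threshold in either fit: without control replicate 1, Cdk1 (0.076), Cenpa (0.027), Tacc3 (0.17), Anln (0.040) and Kif23 (0.012); with both replicate-1 libraries removed, Tacc3 (0.051); without control replicate 3, Pttg1 (0.084); and with both replicate-3 libraries removed, Cdc20 (0.084) and Pttg1 (0.19). At the other end of the fits that lack 1 library stood Cdk1 at -0.66, Cenpa at -0.64, Tacc3 at -0.61, Pttg1 at -0.59 (all without control replicate 2), Anln at -0.79 and Kif23 at -0.75 (both without 2KO replicate 1). Among the label checks, Ring1 turned to 0.039 with the Xist covariate, Rnf2 to -0.054 with both replicate-3 libraries removed, and Ly6a to -0.059 with both replicate-1 libraries removed and -0.45 with the Xist covariate, with -0.34 to 0.53 in the fits that lack 1 library.

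Members called lower numbered 3 with DESeq2 (Bub1b, Ccna2 and Mki67), 2 with no low-count filter, 2 and 0 with both replicate-1 or both replicate-3 libraries removed, 0 with the Xist covariate and 0 to 3 with 1 library left out. Of all genes, 309 were higher and 72 (0.476%) lower with both replicate-3 libraries removed. With 1 library left out, 615 to 854 were higher and 184 to 347 (1.19% to 2.25%) lower. Lower genes numbered 733 (4.9%) with DESeq2 and 474 (2.38%) with no low-count filter. They numbered 262 (1.73%) with both replicate-1 libraries removed and 232 (1.55%) with the Xist covariate. Fallen S phase genes numbered 16 and 4 with both replicate-1 or both replicate-3 libraries removed, 16 with the Xist covariate and 9 to 23 with 1 library left out. Fallen other mitosis genes numbered 25 with DESeq2, 11 with no filter, 6 and 0 with both replicate-1 or both replicate-3 libraries removed, and 0 to 8 with 1 left out. Fallen regulators numbered 4 with DESeq2, 0 with both replicate-1 and 0 with both replicate-3 libraries removed, and 1 to 2 with 1 left out. Risen CDK inhibitors numbered 1 with the CPM filter, the Xist covariate or either replicate pair left out, and 1 to 2 with 1 library left out; fallen ones numbered 0 with either pair left out. Apart from fewer libraries in such fits, the cause was not tested.

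Whether the replicate numbers pair the libraries was not settled. Deviations from the group means correlated at 0.29, 0.09 and -0.08 for numbers 1, 2 and 3. The value for number 1 was the highest of all pairs. Control replicate 2 correlated best with 2KO replicate 3 (0.14), and control replicate 3 with 2KO replicate 2 (0.21). Deviations within a group of 3 sum to 0, so these values cannot decide it. With a replicate block 8 members were called lower (Bub1, Bub1b, Ccna2, Kif11, Kif4, Mki67, Ndc80 and Top2a), 19 other mitosis genes and 29 S phase genes, where 540 of all genes (3.61%) were lower and 1142 higher.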
